A study of Mus musculus with 8 samples.

Results

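The macrophage genes with maternal reads are 10 genes of the 22810 in the deposited counts, namely Lyz2, C1qb, C1qc, H2-Aa, Cxcl13, Adgre1, Ptprc, Itgb2, Spi1 and Fcgr3, all of which were found by symbol. They were selected on their maternal reads in these same blastocysts, so their maternal and paternal reads are given here as a description, without a test. Single blastocysts of embryonic day 3.5, collected after natural mating and lysed without culture, were sequenced from polyA RNA with the SMART-Seq2 method. The forward cross had a mother of the laboratory strain C57BL/6 (B6) and a father of the subspecies Mus musculus castaneus (cast), and 3 embryos. The reverse cross had a cast mother and a B6 father, and 5 embryos, which carry the numbers 1, 2, 3, 5 and 7. No embryo carried a targeted allele or received a treatment according to the labels. All were F1 hybrids, and the labels do not give the sex, the litter or the mother of an embryo.

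The counts are sequencing reads that cover a SNP between both strains, so each read was assigned to B6 or cast, that is, to the mother or the father of the embryo (B6 is maternal in the forward and paternal in the reverse cross). Within 1 embryo, the parent and the strain of a read therefore cannot be told apart. The 8 embryos had 1060063 to 1632695 such reads, and between 57.4% and 58.3% of them were B6 reads in every embryo. A gene without many SNPs gives few reads whatever its level, so levels were not compared between genes. In these whole-embryo libraries, few cells with much RNA and many cells with little RNA cannot be told apart.

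Macrophages are phagocytes of the blood lineage. They make lysozyme and complement, take up particles through Fc and scavenger receptors, present peptides on MHC class II molecules and recruit lymphocytes with chemokines. The blood lineage arises only after implantation, while the uterus and the oviduct hold macrophages of the mother. The embryo at the blastocyst stage consists of trophectoderm, epiblast and primitive endoderm.

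The promoters of 7 of the 10 genes were found in the RefSeq promoter sequences of build GRCm38.p6, and Adgre1, Itgb2 and Spi1 were not matched. The sequences of Lyz2, C1qb, Cxcl13 and H2-Aa are shown because these 4 genes had the most reads among the members that were read almost wholly from the maternal allele. Each ends at the base before the outermost annotated start of its gene, is written 5' to 3' on the strand of the gene, and has matches to the motifs named below in capitals. They lie at chr10:117282322-117282522 on the minus strand, chr4:136886201-136886450 on the minus strand, chr5:95956689-95956938 on the plus strand and chr17:34287824-34288073 on the minus strand.
Lyz2: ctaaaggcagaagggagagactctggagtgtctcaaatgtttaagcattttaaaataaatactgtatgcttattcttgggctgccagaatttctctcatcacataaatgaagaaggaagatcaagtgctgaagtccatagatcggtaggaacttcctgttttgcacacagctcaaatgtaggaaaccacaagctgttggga
C1qb: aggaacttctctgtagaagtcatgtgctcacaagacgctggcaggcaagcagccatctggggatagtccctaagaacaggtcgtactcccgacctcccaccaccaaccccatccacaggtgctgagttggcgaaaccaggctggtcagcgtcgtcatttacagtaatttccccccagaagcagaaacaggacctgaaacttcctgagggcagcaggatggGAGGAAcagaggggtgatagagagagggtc
Cxcl13: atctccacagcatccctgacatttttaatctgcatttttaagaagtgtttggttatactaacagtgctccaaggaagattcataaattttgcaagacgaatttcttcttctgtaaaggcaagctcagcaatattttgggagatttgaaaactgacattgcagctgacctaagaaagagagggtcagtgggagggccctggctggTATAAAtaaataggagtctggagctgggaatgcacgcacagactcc
H2-Aa: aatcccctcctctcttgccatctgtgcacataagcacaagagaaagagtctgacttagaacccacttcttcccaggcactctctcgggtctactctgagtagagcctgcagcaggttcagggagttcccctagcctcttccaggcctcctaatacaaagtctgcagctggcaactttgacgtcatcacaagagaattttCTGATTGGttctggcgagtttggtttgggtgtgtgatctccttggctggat
GAGGAA, the core of many sites of PU.1 (the product of Spi1), was searched on both strands in the 250 bases before each RefSeq start. It was found for 4 of the 7 genes, C1qb, C1qc, Ptprc and Fcgr3, and in 23.3% of all 32851 promoters. In C1qb it starts 30 bases before the start site, and in Lyz2, Cxcl13 and H2-Aa these letters were not in the window. CTGATTGG, the Y box known from MHC class II promoters, was found in H2-Aa alone among the 7 genes and in 3.83% of all promoters. TATAAA, the TATA box, was found in Cxcl13 and Ptprc and in 12.4% of all promoters. These motifs do not overlap each other in the sequences shown, and a match does not show that a factor binds there. The 7 genes had 9 windows, and a gene was counted if any of its windows had a match. The shares of all promoters count single windows, so they are not like for like with the counts of genes. The windows of Ptprc and Fcgr3 lie within the gene as GENCODE annotates it and are not shown.

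The reads of 8 of the 10 genes lay mainly in forward embryo 1 and were almost wholly maternal, whereas Spi1 and Fcgr3 were read from both alleles in all 8 embryos. This split was made after the values were seen. Lyz2, which encodes the lysozyme of macrophages (chr10:117277331-117282321), had 1055 maternal and 0 paternal reads in forward embryo 1, 38 and 0 in forward embryo 2, and 39 and 4 in forward embryo 3. In reverse embryos 1, 2, 3, 5 and 7 it had 3, 0, 2, 5 and 2 maternal reads, and its only paternal read in this cross was in embryo 7. All 3 forward embryos thus had more Lyz2 reads than any reverse embryo, and 91.8% of the 1149 reads came from forward embryo 1. The 0 paternal reads of Lyz2 in forward embryo 1 allow a paternal share of up to 0.284%. Lyz2 lies beside its paralog Lyz1, which had 12 maternal and 1 paternal reads over all embryos. Reads that map to both places were excluded by the authors, but a paralog of this likeness leaves some uncertainty.

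C1qb and C1qc encode chains of C1q, the complement protein that binds immune complexes, and lie close together on chromosome 4 (chr4:136880129-136886187 and chr4:136889804-136893065). C1qb had 245, 8 and 26 maternal reads and no paternal read in forward embryos 1, 2 and 3, and in the reverse cross a single paternal read in embryo 3. C1qc had 31 maternal reads in forward embryo 1, 1 maternal read in reverse embryo 1, and none in the other embryos. C1qa, the neighbouring gene of the third chain, was not a member and had 14 maternal and 0 paternal reads in forward embryo 1. It had 1 maternal read in forward embryo 2, but 0 maternal and 3 paternal reads in forward embryo 3. C1qb reads were thus seen in every forward embryo, but those of C1qc in forward embryo 1 alone among the 3.

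H2-Aa, the alpha chain of an MHC class II molecule (chr17:34282744-34287823), had 66 maternal and 0 paternal reads in forward embryo 1 and no read in forward embryos 2 and 3. Among the members other than Spi1 and Fcgr3 it had the most reads from a cast mother, since reverse embryo 2 had 14 maternal reads and 0 paternal ones. Reverse embryo 5 had 2 maternal reads, reverse embryo 7 had 1 of each allele, and reverse embryos 1 and 3 had none. The 14 maternal reads of reverse embryo 2 are cast reads, unlike the B6 reads of forward embryo 1, and 0 paternal reads among 14 allow a share of up to 21.4%.

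Cxcl13, a chemokine that attracts B cells (chr5:95956951-95961068), had 178, 3 and 3 maternal reads in forward embryos 1, 2 and 3, no paternal read, and no read in the reverse cross. The surface proteins had fewer reads. Adgre1, which encodes the F4/80 antigen of macrophages (chr17:57358691-57483527), had 28 maternal reads in forward embryo 1, 2 paternal reads in reverse embryo 2 and 1 maternal read in reverse embryo 3. Ptprc, which encodes the leukocyte protein CD45 (chr1:138062861-138175708), had 27 maternal reads in forward embryo 1 and none in any other embryo. It overlaps A130071D04Rik on the same strand. Itgb2, the beta chain of leukocyte integrins (chr10:77530252-77565708), had 27, 2 and 1 maternal reads and 0, 0 and 1 paternal reads in forward embryos 1, 2 and 3, and 2 paternal reads in reverse embryo 7. Outside forward embryo 1, Adgre1, Ptprc and Itgb2 had at most 2 reads of either parent in any embryo.

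**Figure D1:**
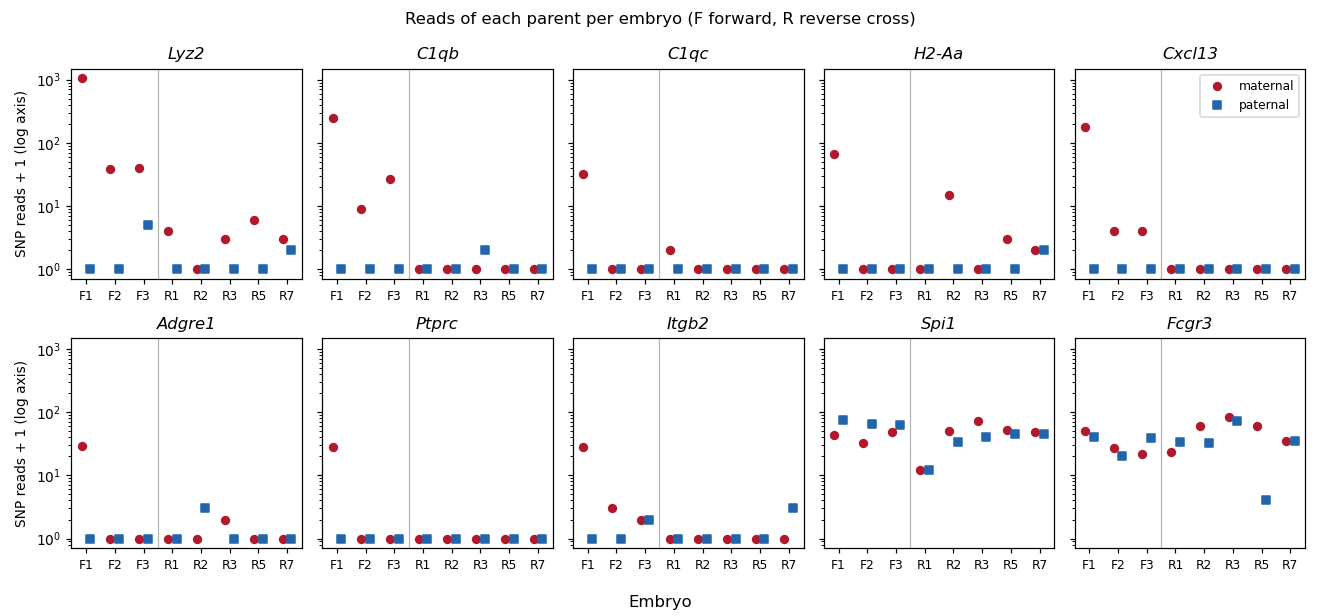
SNP-spanning reads plus 1 (log axis) of the maternal (circles) and paternal (squares) allele of each of the 10 genes in the 3 forward (F) and 5 reverse (R) embryos. In forward embryo 1 the maternal reads of Lyz2, C1qb, Cxcl13 and H2-Aa reach 1055, 245, 178 and 66 with 0 paternal reads, while Spi1 and Fcgr3 have reads of both alleles in every embryo.

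Spi1 encodes PU.1, a transcription factor of myeloid and B cells (chr2:91082390-91115756). It had 42, 31 and 48 maternal and 75, 64 and 61 paternal reads in forward embryos 1, 2 and 3. In reverse embryos 1, 2, 3, 5 and 7 it had 11, 49, 70, 52 and 47 maternal and 11, 33, 39, 44 and 44 paternal reads. The cast allele had more reads than the B6 allele in 7 embryos and as many in 1 embryo. The strain term for Spi1 was 0.90 (log2 cast over B6, edgeR). Spi1 was chosen on these reads, so this is a description from which no strain effect is read. The total level of Spi1 was 71.7 to 85.3 CPM (reads scaled to the SNP-spanning total of the embryo) in the forward and 14.6 to 85.8 CPM in the reverse embryos, and both groups overlapped.

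Fcgr3, a low-affinity Fc receptor for IgG (chr1:171051174-171064935), had 49, 26 and 21 maternal and 40, 19 and 38 paternal reads in forward embryos 1, 2 and 3. In reverse embryos 1, 2, 3, 5 and 7 it had 22, 59, 84, 59 and 34 maternal and 33, 32, 72, 3 and 34 paternal reads. Reverse embryo 5 stood apart with a maternal share of 95.2% (95% exact Clopper-Pearson interval 86.5% to 99.0%), whereas the share was 35.6% to 64.8% in the other 7 embryos. The strain term for Fcgr3 was 0.63 (log2 cast over B6, edgeR), again a description from which no strain effect is read. Fcgr3 contains the microRNA gene Mir6546 on its strand and has close paralogs among the Fc receptors. Its total level was 39.1 to 54.5 CPM in the forward and 36.5 to 104 CPM in the reverse embryos, again with overlap.

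Summed over the 8 genes other than Spi1 and Fcgr3, forward embryos 1, 2 and 3 had 1657, 51 and 69 maternal and 0, 0 and 5 paternal reads. The 5 reverse embryos together had 31 maternal and 7 paternal reads, a maternal share of 81.6%, and each had 4 to 16 reads. Their summed level was 1015, 44.3 and 57.9 CPM in forward embryos 1, 2 and 3 and between 2.66 and 10.01 CPM in the reverse embryos. The level in forward embryo 1 was thus far above that of every other embryo, and forward embryos 2 and 3 were still above all reverse embryos. For forward embryos 2 and 3 this gap rested largely on Lyz2. Without Lyz2, the other 7 genes summed to 11.3 and 24.3 CPM there, against 10.01 CPM in reverse embryo 2. These were 13 reads in forward embryo 2 and 16 in reverse embryo 2. C1qc, H2-Aa, Adgre1 and Ptprc had no read in forward embryos 2 and 3. The sum of Spi1 and Fcgr3 was 126, 122 and 132 CPM in the forward embryos and 51.2 to 177 CPM in the reverse embryos, and forward embryo 1 did not stand apart.

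**Figure D2:**
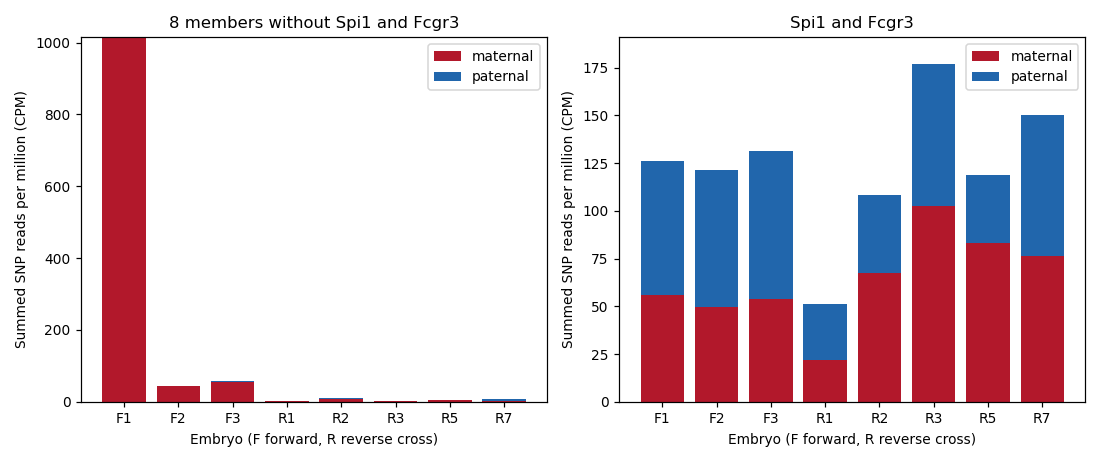
Summed CPM of the 8 genes other than Spi1 and Fcgr3 (left) and of Spi1 and Fcgr3 (right) in each forward (F) and reverse (R) embryo, stacked by parental allele. The 8 genes reach 1015 CPM in forward embryo 1 and at most 57.9 CPM elsewhere, whereas Spi1 and Fcgr3 reach 126 CPM in forward embryo 1 and 177 CPM in reverse embryo 3.

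Over all 10 genes, the maternal share of the reads was 93.8% in forward embryo 1 (interval 92.6% to 94.9%), 56.5% in forward embryo 2 (49.2% to 63.7%) and 57.0% in forward embryo 3 (50.5% to 63.3%). Forward embryos had a mean of 69.1% ± 21.4 (SD, n = 3), and reverse embryos had 58.1% ± 10.4 (SD, n = 5). Without forward embryo 1, the forward mean was 56.8% ± 0.340 (SD, n = 2). For the 8 genes other than Spi1 and Fcgr3, the means were 97.7% ± 3.90 (SD, n = 3) and 81.1% ± 23.7 (SD, n = 5), the latter from few reads. Whether the maternal reads came from cells of the mother or from the embryo was not tested. These intervals cover counting error only, since reads amplified by PCR are not independent molecules.

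For comparison, reads of some genes with a known parental bias are given as a description. Peg3, Slc38a4, Sfmbt2, Kcnq1ot1 and Snrpn, imprinted genes read from the paternal allele and chosen after their values were seen, together had 1165 paternal and 36 maternal reads in this embryo. The maternal share was 3.00% (interval 2.11% to 4.13%), against 2.16% and 0.507% in forward embryos 2 and 3 and at most 0.432% in the reverse embryos. Of these 36 maternal reads, 30 were from Kcnq1ot1, which had 238 paternal reads there. Snrpn had 3 maternal and 12 paternal reads in forward embryo 1, and 5 and 11 in forward embryo 2. Because these genes were chosen by their values, they are no test of how well the alleles were told apart.

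As a background for the macrophage genes that are not members, maternal and paternal reads were compared with strain as a term (edgeR, adjusted p at most 0.1). Of 12565 genes tested, 0.310% were called toward the maternal and 1.11% toward the paternal allele. With a term for each embryo, which uses the pairing of both alleles, 1.03% of genes were called maternal. The members were chosen on their maternal reads, so this comparison is no test of them and their calls are left out. As a description, the ratios of maternal over paternal reads were -0.15 for Spi1 and 0.27 for Fcgr3 on the log2 scale.

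The total reads of an embryo do not use the parent of a read, although the members were chosen with the reads of each embryo in view. In the comparison of the crosses by total reads, 10483 genes with at least 10 reads in at least 3 embryos were tested and 0.0286% were called higher in the forward cross. Of the members, Lyz2, Spi1 and Fcgr3 had enough reads for this filter. Lyz2 reached it through the 3 forward embryos alone, so its levels are a description without a test. They were 32.99 to 646 CPM in the forward and 0 to 3.75 CPM in the reverse embryos, without overlap. Spi1 differed by 0.37 ± 0.467 (log2 forward over reverse, SE, edgeR) and Fcgr3 by -0.48 ± 0.415. Both values are a description too, since the members were chosen with these reads in view. In this comparison the cross cannot be told apart from the strain of the mother.

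Other macrophage genes were taken from a list of 96 genes in 7 groups, of which 80 were in the counts, 4 of them X-linked. In forward embryo 1, 33 autosomal genes of the list had at least 10 reads, and in 15 of them at least 95% of the reads were maternal. Of all 10464 autosomal genes with at least 10 reads in that embryo, 6.62% met this criterion, which was chosen after the data were seen. In forward embryo 2 it was met by 0 of 16 list genes, beside 4.10% of all genes, and in forward embryo 3 by 3 of 17, beside 4.62%. At 20 reads or more, 9 of 26 list genes met it in forward embryo 1, beside 4.14% of all 8670 genes with as many reads. The share of all genes thus depends on the number of reads, and the list genes were not matched to other genes by reads. The 15 list genes were not maternal throughout. In the reverse embryos, 7 of them had more paternal than maternal reads, 3 had more maternal reads, 1 had as many of each and 4 had none, with 47 maternal and 71 paternal reads in all. The paternal allele there is B6, as is the maternal allele in forward embryo 1.

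Among scavenger receptors and complement, 5 of 6 genes with at least 10 reads in forward embryo 1 were at least 95% maternal. Msr1, a scavenger receptor, had 38 maternal and 1 paternal reads there and none elsewhere. Cd5l, a secreted macrophage protein, had 30 maternal and 0 paternal reads there, and Timd4, a receptor for phosphatidylserine on dying cells, had 20 and 0. Stab1, which takes up modified lipoproteins, had 11 and 0 reads in forward embryo 1 but 5 maternal and 21 paternal reads in the other embryos together. Mertk, a receptor for the uptake of dying cells, did not meet the criterion, with 17 maternal and 16 paternal reads in forward embryo 1 and reads of both alleles in every embryo.

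Among Fc receptors and their adaptors, 2 of 3 genes met the criterion. The adaptor Tyrobp had 25 maternal and 0 paternal reads and the kinase Syk 26 and 0 in forward embryo 1. In the reverse embryos together Syk had 0 maternal and 4 paternal reads. The kinase Lyn, in contrast, had 19 and 27. Of the chemokines and their receptors, 3 of 5 genes met it, and Ccl6 had 82, Pf4 had 30 and Ccl24 had 11 maternal reads in forward embryo 1, each with 0 paternal reads. Ccl6 had a further 13 maternal reads in forward embryo 3 and 1 paternal read in reverse embryo 3. Ccl9, a related chemokine, had 51 maternal and 27 paternal reads in forward embryo 1. In forward embryos 2 and 3 it had 1 and 2 maternal beside 20 and 54 paternal reads. The reverse embryos together gave it 166 maternal and 33 paternal reads. Outside forward embryo 1, cast reads of Ccl9 thus prevailed, except in reverse embryo 1 with 10 maternal and 16 paternal reads. Ccl6 overlaps E230016K23Rik on the other strand, and whether the counting used strand is not given in the sources used here.

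Of the MHC class II genes, 2 of 4 met the criterion, H2-DMb1 with 10 maternal and 0 paternal reads and H2-Ab1. H2-Ab1, the beta chain that pairs with H2-Aa, had 25 maternal and 0 paternal reads in forward embryo 1. Reverse embryo 2 gave it 10 maternal and 11 paternal reads and reverse embryo 5 gave it 18 and 0, but in forward embryos 2 and 3 it had paternal reads alone, 8 and 4. Thus it followed the maternal allele in forward embryo 1 and in reverse embryo 5, but not in the other embryos with reads. H2-DMa, which loads peptides, had 17 maternal and 13 paternal reads in forward embryo 1. In the leukocyte surface and cytoskeleton group 2 of 5 genes met it, since the integrin chain Itgam had 16 maternal and 0 paternal reads and the GTPase Rac2 had 22 and 0. In the reverse embryos together these had 0 maternal reads each, beside 5 paternal reads of Itgam and 1 of Rac2. Lcp1, an actin-bundling protein, had 1225 and 1092 and was read from both alleles in all embryos. Ikzf1, a transcription factor of blood cells, had 12 and 0 and was the 1 of 4 genes in the group of transcription factors and growth factor receptors. None of the 6 genes for lysosome and defence met the criterion. Lgals3, Lgmn and Acp5, which are also known in other tissues, had 94, 149 and 223 maternal and 116, 156 and 81 paternal reads in forward embryo 1.

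**Figure D3:**
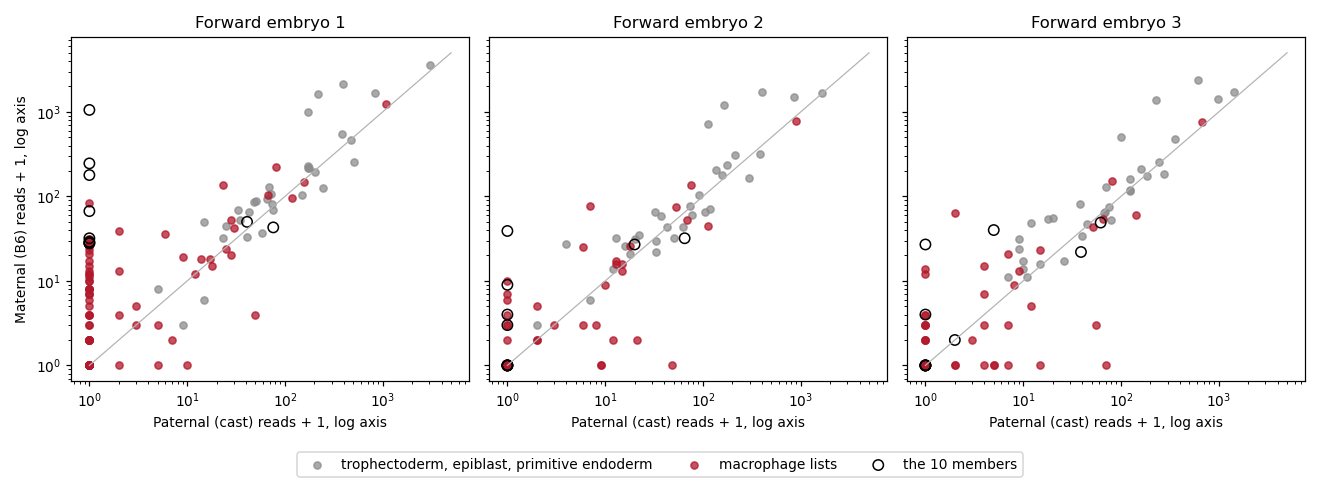
Maternal (B6) against paternal (cast) reads plus 1 (log axes) in each forward embryo for autosomal genes of the macrophage lists (red), for trophectoderm, epiblast and primitive endoderm genes (grey) and for the 10 members (open circles), with a line at equal reads. In forward embryo 1, 15 of 33 macrophage list genes with at least 10 reads are at least 95% maternal, in forward embryo 2 none of 16, and of the grey genes with at least 10 reads none is in any of these embryos.

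Several markers that define macrophages had few reads of either allele. Csf1r, the receptor of the macrophage growth factor, had 5 maternal and 3 paternal reads over all 8 embryos. Cd68 had 6 and 7, Fcer1g had 1 and 1, Cd74 had 1 and 2, and Cd14 had 1 and 0. Whether these genes carry SNPs that could give reads was not tested.

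In the test across all genes, 36 genes of the macrophage list passed the read filter, and 1 was called maternal and 1 paternal. Some, such as Pf4, Ccl24, Timd4 and Ikzf1, passed the filter through the maternal reads of forward embryo 1 alone. The median log2 ratio of maternal over paternal reads of the 36 genes is therefore a description. It was 0.36, against 0.01 over all genes tested. Ccl6 was called maternal at 5.84 ± 1.38 (log2, SE; edgeR adjusted p = 0.0569), beside the 0.310% of all genes. Ccl6 passed the filter through the maternal reads of forward embryos 1 and 3 alone, so its call is a description and no test. Its adjusted p was 1 with a term for each embryo and 0.796 without forward embryo 1. With a term for each embryo, Ctsc, a lysosomal protease, was called in place of Ccl6 (log2 ratio 1.18, edgeR adjusted p = 0.0619). Its reads were 277 maternal and 29 paternal in the forward but 135 and 252 in the reverse embryos, so the B6 allele had more reads in both crosses. Runx1, a transcription factor that blood formation needs, was called paternal at -6.18 ± 0.604 (log2, SE; edgeR adjusted p = 9.12e-07). It had 430 paternal and 5 maternal reads in all, with more paternal than maternal reads in 8 of 8 embryos. Runx1 overlaps the antisense gene Gm26626. In the comparison of the crosses, 20 genes of the list were tested, 0 were called by edgeR or by DESeq2 and 0 had an unadjusted p under 0.05. Of all 10483 genes tested, 7 were called by edgeR and 750 had an unadjusted p under 0.05. With so few genes called at all, nothing is read from the counts of the list.

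In forward embryo 1, the gene lists of other cells of the mother held genes with mostly maternal reads too, but not all of these were maternal in the reverse embryos. Of the 18 genes of these lists with at least 10 reads in forward embryo 1, 6 were at least 95% maternal, Cd3d, Cpa3, Esr1, Ms4a1, Ovgp1 and Pax8, beside the 6.62% of all genes. Ms4a1, which encodes the B-cell protein CD20, had 22 maternal and 0 paternal reads there, and Esr1, the oestrogen receptor, had 21 and 0. The other B-cell genes named, Cd79b and Pax5, had 10 maternal and 31 paternal, and 2 and 8 reads. Cd3d, a T-cell receptor subunit, had 15 and 0, and Cpa3, a mast cell protease, had 23 and 1. Ovgp1 and Pax8, known from the oviduct, had 10 and 0 each. In the reverse embryos, 4 of the 6 genes had more paternal reads, that is, more B6 reads as in forward embryo 1. Cd3d had 0 maternal and 51 paternal reads there, Cpa3 had 0 and 73, Ovgp1 had 0 and 7, and Pax8 had 2 and 12. The strain effect (log2 cast over B6) was -5.87 for Cpa3 (edgeR adjusted p = 2.36e-06) and -5.65 for Cd3d (edgeR adjusted p = 0.00594). The reads of these genes thus followed the B6 allele in both crosses. Ovgp1, Pax8, Esr1 and Ms4a1 passed the read filter through forward embryo 1 alone, so no strain test of them is given. Esr1 had 8 maternal and 1 paternal reads in the reverse embryos, and Ms4a1 had 2 and 0. The 23 genes tested across all embryos were 3 of T and NK cells, 2 of B cells, 2 of granulocytes and mast cells, 2 of red blood cells, 2 of the uterus, 2 of the oviduct, 2 of endothelium, 2 of cumulus cells and 6 of the oocyte. Of these 23 genes, 0 were called toward either parent by edgeR. Of the 32 trophectoderm, epiblast and primitive endoderm genes with at least 10 reads in forward embryo 1, 0 were at least 95% maternal. Many of these 32 genes had far more reads than the list genes that met the criterion, and the lists were not matched for reads. The keratin Krt18, for example, had 1657 maternal and 825 paternal reads, and the primitive endoderm gene Lamb1 had 255 and 513.

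Genes read mainly in 1 embryo were then collected by total reads, without regard to the parent. At least 80% of the reads of 34 autosomal genes other than the members, each with at least 20 reads, came from forward embryo 1, which is 0.251% of the 13559 such genes. These 34 genes had 1059 maternal and 48 paternal reads there, a maternal share of 95.7% (interval 94.3% to 96.8%). At least 95% maternal were 27 of them, beside 6.62% of all genes with at least 10 reads there, and 0 were at most 5% maternal. In reverse embryo 1, which had 35 such genes, the maternal share was 37.4% (34.5% to 40.3%), and in reverse embryo 2, with 12 genes, it was 36.5% (31.0% to 42.2%). These are pooled shares of genes that differed. In reverse embryo 1, 10 genes were at least 95% and 17 at most 5% maternal, and in reverse embryo 2 these were 2 and 5. Genes read mainly in 1 embryo were thus often read from 1 allele there too, but in both directions. Of all reads, 58.3% were maternal in forward embryo 1, and 42.6% and 41.9% in reverse embryos 1 and 2. The other embryos had 0 to 4 such genes. At 70% or 90% of the reads, 50 or 14 genes came from forward embryo 1, with maternal shares of 94.1% and 97.8%. The criterion was chosen after the data were seen.

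Of the 34 genes, 7 were on the macrophage list, Ccl6, Msr1, Cd5l, Pf4, Tyrobp, Rac2 and Timd4, out of 35 list genes with at least 20 reads. By the same criterion, 7 of the 10 members were concentrated in forward embryo 1, and H2-Aa was just below it with 78.6% of its reads there. The members were chosen with these reads in view, so nothing is read from their count. The most reads among genes outside the lists were those of C4b, a complement component, with 106 maternal and 0 paternal reads, and Wfdc17, with 100 and 0. Mcemp1 had 27 and 0, and Slpi, a secreted protease inhibitor, had 22 and 0. Transcription factors of blood and vessel cells were among the genes too, with 20 and 0 reads of Fli1 and 20 and 2 of Ets1. The genes named here are a selection. Others were Padi1 with 70 and 2 reads, Kcnk13 with 36 and 0, Clca1 with 25 and 0 and Lhx4 with 19 and 3. Upk1b, a urothelial membrane protein, had 1 maternal and 18 paternal reads, and Gper1 had 10 and 9. Gm30992 with 24 and 5 and Atp10b with 17 and 4 were also below 95%.

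**Figure D4:**
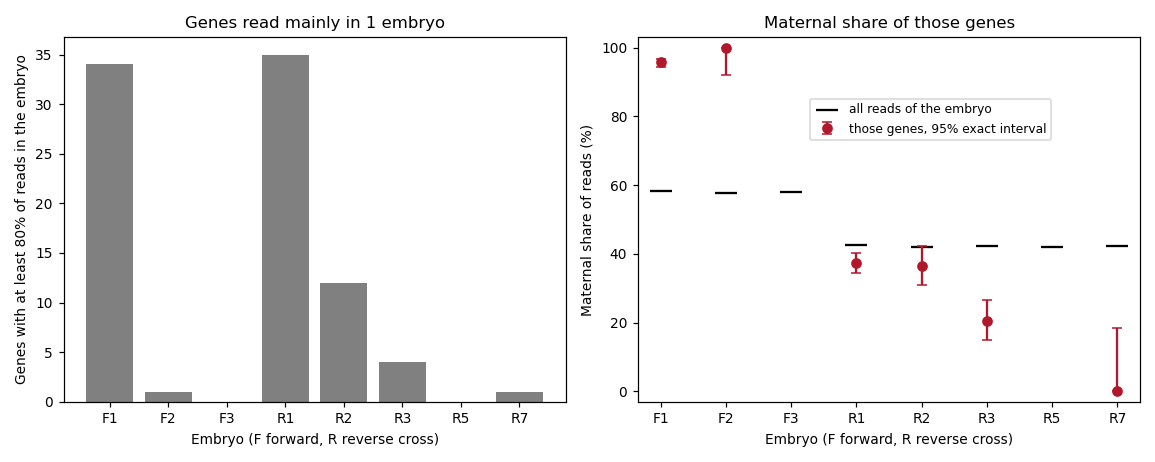
Left, number of autosomal genes other than the members with at least 80% of their reads in the given embryo. Right, the maternal share of the reads of those genes in that embryo with its 95% exact interval (points), and of all reads of the embryo (dashes). Forward embryo 1 has 34 such genes with a maternal share of 95.7%, and reverse embryo 1 has 35 with 37.4%. The latter pools 10 genes at least 95% maternal and 17 at most 5% maternal with others.

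The members differed in how closely they followed each other over the 8 embryos. On log2(CPM + 1), Pearson's r between a member and the sum of the other 9 was 0.68 to 0.90 for the 8 genes concentrated in the maternal allele, but 0.36 for Spi1 and 0.14 for Fcgr3. These values describe 8 embryos, and 1 embryo carries much of the spread. Of the 15 other genes whose total CPM was most like the sum of the members, 4931431C16Rik came first (r = 0.96), followed by Slu7, Gm30927, F5 and Slpi (r = 0.93, 0.92, 0.92 and 0.92). Their parental reads, which this measure does not use, were mixed. In forward embryo 1, 4931431C16Rik had 21 maternal and 0 paternal reads, Slu7 had 94 and 101, Gm30927 had 14 and 3, and F5 had 29 and 8. Dpep2 had 27 and 0 and A430078I02Rik had 37 and 0, whereas Fabp3 had 78 and 146 and Dtnbp1 77 and 54. Dancr, Mus81, R3hdm4, Znfx1, Pcdhga10 and Pcdhgb7 complete these 15 genes and had between 4 and 105 maternal and between 13 and 133 paternal reads there. The last 2 share 1 set of counts, as genes with common exons can.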

How the data were processed

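RNA of 3 forward and 5 reverse blastocysts was analysed as 16 allele libraries. According to the submitters' processing notes and the methods, STAR (version 2.5.2b in the notes) placed reads on mm10, reads with multiple locations were dropped, and Allelome.Pro gave the reads over SNPs for every gene and allele. The authors deposited these as raw counts, without normalization. Each embryo stands for 1 sample in the cross contrast. In the allele contrast it gives a maternal and a paternal library, and the main model has no term that pairs them. The labels do not say whether embryos had separate mothers. P-values thus measure the spread between embryos in the cross contrast and between allele libraries in the main allele contrast.

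Maternal and paternal reads were set by the cross. Genes were placed by symbol with GENCODE M21 or RefSeq, and no test included the 645 genes on X or the 1109 that were not placed. The allele contrast used edgeR 4.0.16 in R 4.3.3 (TMM factors, strain and parent as terms, quasi-likelihood test, Benjamini-Hochberg adjustment) for genes that reached 10 reads in 1 or more allele libraries. The cross contrast used total reads per embryo. Calls had an adjusted p of at most 0.1. The study used DESeq2, which is an alternative here (version 1.42.0). The tests were tried on simulated data. CPM was computed from all SNP-spanning reads of an embryo.

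The members and the gene lists were chosen with earlier results of these data known. Named genes are the members, the genes called in each list (at most 6) with its 3 genes of most reads, and the 15 genes of the most similar profile. Other genes in the text were named after their values were seen. The alleles of 1 embryo are a true pair, because both come from the same embryo. The correlation of their deviations was 0.085 to 0.478, and this pairing enters the model in which every embryo has a term.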

Additional observations from a re-analysis of the deposited data

Results flagged for a closer look

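In the reverse cross, a sample far from the other 4 was seen for 4 members by Dixon's test. These were C1qb in reverse embryo 3 (0.667 CPM, from 1 paternal read), C1qc in reverse embryo 1 (0.664 CPM, from 1 maternal read), Itgb2 in reverse embryo 7 (1.89 CPM, from 2 paternal reads) and H2-Aa in reverse embryo 2 (8.76 CPM, from 14 maternal reads). Chance gives about 1 such value in 20 groups where values vary continuously, and 13 groups were examined. The first 3 rest on at most 2 reads. With 0 reads in the other 4 embryos, any read gives such a value, so this rate does not apply to them.

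The parental effect differed between the crosses, by the test of the strain term in edgeR, for 10 of the 36 macrophage list genes tested, beside 15.4% of all genes. The B6 allele had more reads for 7 of them and the cast allele for 3. Values are given for those described in the report. The log2 cast over B6 was -6.73 for Ccl6 (adjusted p = 0.0061), -1.76 for Ctsc (0.0158), -4.43 for Itgam (0.065), -3.42 for Syk (0.0787), -4.50 for Rac2 (0.079) and -4.36 for Timd4 (0.0819). It was 1.27 for Lgmn (adjusted p = 0.0222) and 2.12 for Ccl9 (0.0295). Ccl6, Itgam, Syk, Rac2 and Timd4 had most of their reads in forward embryo 1, where the maternal reads are B6 reads, and 1 to 5 reads in the reverse embryos together. These genes passed the read filter through maternal reads of forward embryos alone, so their strain values are a description. The count of 10 genes and its split of 7 and 3 are therefore no test of strain or of a difference between the crosses.

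X-linked genes of the macrophage list were outside the tests. Cybb, a subunit of the phagocyte oxidase, had 38 maternal reads. Forward embryo 1 gave 23 of these, beside 0 paternal reads. Vsig4, a complement receptor, had 5, all in forward embryo 1. For Was there were 29 maternal reads with 1 in that embryo, and for Btk 9 with 0 there. The paternal reads were 8 for Cybb, 0 for Vsig4, 0 for Was and 3 for Btk. Reads of X-linked genes also depend on the sex of an embryo and on X inactivation, and their part was not tested.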

How the results depend on the processing

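The number of all genes called maternal was 39. It was 66 with DESeq2, 130 without a filter, 15 with at least 12 reads in at least 4 embryos, 130 in the paired model with a term for each embryo, 323 with X-linked and unplaced genes kept, 94 with legacy = FALSE, and 17 to 58 with 1 embryo left out, with 17 lacking forward embryo 1. The macrophage list gave 1 maternal call, that of Ccl6, which is a description as said above. It gave 0 with DESeq2, with the filter of 12 reads or without the strain term, 3 without a filter (Ccl6, Coro1a and Pf4), 2 with X-linked genes kept (Ccl6 and Was), and 0 to 1 with 1 embryo left out, with 0 lacking forward embryo 1 or 3 or reverse embryo 2, 3, 5 or 7. The cause of these changes was not tested, except that the strict filter tests fewer genes. The term for each embryo changed the call of Ccl6 and Ctsc and moved the count of all maternal calls, and no other call of the named genes of the macrophage list. Among named embryo genes it added paternal calls of Tspan8 and Lama1.

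In the cross contrast, 3 genes were called higher in the forward cross. The number was 36 with DESeq2, 60 without a filter, 1 with the label number as a replicate block, and 0 to 47 with 1 embryo left out, with 47 lacking reverse embryo 1 and 24 lacking reverse embryo 3. A planned count of members called in this contrast was dropped, because Lyz2 passed the filter through the forward embryos alone and the members were chosen with these reads known. The macrophage list gave 0 calls, but 3 without a filter (Ccl6, Msr1 and Pf4). Embryos of both crosses share only a number in the labels. The correlations of their deviations were 0.119, 0.00566 and 0.09995, so the block by number is no pairing.

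The maternal share of the member reads was 69.1% (forward) and 58.1% (reverse). Over the 8 members without Spi1 and Fcgr3, which was chosen after seeing the data, it was 97.7% and 81.1%. With 1 embryo left out it was 56.8% to 75.4% and 54.8% to 61.3%. At 90% of reads in place of 80%, 14 and not 34 genes were concentrated in forward embryo 1, and at 20 reads 9 and not 15 list genes were mostly maternal there. The reverse embryos had at most 16 reads of the 8 members, so a maternal share there was not measurable with useful precision.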
